A study of Mus musculus with 6 samples.

Results

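The genes described here are 42 interferon response and antigen presentation genes, chosen by name, and 40 of them were among the 15063 genes in the expression tables of cultured bone marrow mesenchymal stem cells (MSCs). They fall into 29 type I interferon targets (27 listed), 6 interferon-induced GTPase genes (6 listed) and 7 genes of the MHC class I pathway (7 listed). Mx1 and Mx2 were not analysed here. The tables hold 6 RNA-seq libraries, 3 of cells from Mapk7 conditional knockout (CKO) mice and 3 of cells from wild-type (WT) mice, taken at the age of 3 weeks. Mapk7 encodes the MAP kinase ERK5. CKO libraries 1 to 3 and WT libraries 1 and 3 came from cells at passage 5, and WT library 2 came from cells at passage 7. WT libraries 1 and 2 carry a single animal label between them, so they may not be separate animals, and for WT library 3 the description and the file header name different animal numbers. The sources used here do not give the promoter driving Cre, the strain or the sex of the mice. Both genotypes were grown in α-MEM with serum, and no interferon or other stimulus is named. Nothing states that the libraries of a genotype came from separate cultures, so the tests below cover the spread among libraries, which may be technical.

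Type I interferons bind the receptor IFNAR, which signals through the kinases JAK1 and TYK2 to transcription factors that include STAT2 and IRF9. These bind interferon-stimulated response elements (ISREs) in the promoters of target genes, while interferon γ acts largely through gamma-activated sites (GAS). The targets include antiviral effectors, nucleic acid sensors, guanylate-binding and immunity-related GTPases that act on vacuoles of pathogens, and the machinery that cuts peptides and loads them on MHC class I molecules for display to CD8 T cells. Many of these genes are transcribed at a low tonic level without added interferon, in stromal cells as well as in macrophages.

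The promoter sequences of 6 genes are shown: a type I target, a GTPase gene and an MHC class I gene with an ISRE core (Isg15, Irgm1 and B2m), Ifit3, whose copies of it lie apart, and Samhd1 and Tapbp, the members with the lowest p, which lack it. RefSeq windows of GRCm38.p6, from 250 bases before to 50 bases after a gene's start, were matched by symbol for 33 of the 42 genes. The expression files were made on mm9, so these coordinates belong to the RefSeq table and not to the files. Each is written 5′ to 3′ on the strand of the gene, and capitals mark matches to the ISRE core GAAANNGAAA or to the GAS motif TTCNNNGAA on either strand.
Isg15, chr4:156200769-156201068, minus strand: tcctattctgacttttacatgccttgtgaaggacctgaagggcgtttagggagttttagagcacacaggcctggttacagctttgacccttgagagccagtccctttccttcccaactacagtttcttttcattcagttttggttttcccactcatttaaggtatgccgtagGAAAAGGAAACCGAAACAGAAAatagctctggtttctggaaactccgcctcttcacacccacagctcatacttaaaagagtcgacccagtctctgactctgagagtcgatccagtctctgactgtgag
Ifit3, chr19:34583279-34583578, plus strand: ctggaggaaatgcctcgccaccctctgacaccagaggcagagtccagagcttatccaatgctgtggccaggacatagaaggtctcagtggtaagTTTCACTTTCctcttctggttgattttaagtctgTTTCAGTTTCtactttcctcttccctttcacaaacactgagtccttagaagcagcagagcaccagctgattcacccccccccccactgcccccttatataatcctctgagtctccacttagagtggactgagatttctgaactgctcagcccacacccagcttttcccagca
Irgm1, chr11:48871371-48871670, minus strand: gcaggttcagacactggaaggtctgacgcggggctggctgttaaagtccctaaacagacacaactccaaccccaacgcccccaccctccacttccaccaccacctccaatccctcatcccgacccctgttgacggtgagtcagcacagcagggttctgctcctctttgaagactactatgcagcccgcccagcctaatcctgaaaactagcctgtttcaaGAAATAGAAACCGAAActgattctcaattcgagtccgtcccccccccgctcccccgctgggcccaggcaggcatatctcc
B2m, chr2:122147437-122147736, plus strand: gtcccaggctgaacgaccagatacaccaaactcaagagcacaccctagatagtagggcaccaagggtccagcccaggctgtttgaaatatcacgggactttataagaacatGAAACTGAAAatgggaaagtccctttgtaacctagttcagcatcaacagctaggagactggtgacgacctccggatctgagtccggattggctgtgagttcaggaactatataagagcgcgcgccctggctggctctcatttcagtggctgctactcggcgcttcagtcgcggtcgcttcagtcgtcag
Samhd1, chr2:157135047-157135346, minus strand: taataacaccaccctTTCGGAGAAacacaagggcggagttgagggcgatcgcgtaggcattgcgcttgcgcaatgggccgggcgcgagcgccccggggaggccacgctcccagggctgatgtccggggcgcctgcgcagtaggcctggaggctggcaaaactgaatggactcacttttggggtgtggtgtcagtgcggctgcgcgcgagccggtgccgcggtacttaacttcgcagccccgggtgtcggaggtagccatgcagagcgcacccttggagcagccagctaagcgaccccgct
Tapbp, chr17:33919228-33919527, plus strand: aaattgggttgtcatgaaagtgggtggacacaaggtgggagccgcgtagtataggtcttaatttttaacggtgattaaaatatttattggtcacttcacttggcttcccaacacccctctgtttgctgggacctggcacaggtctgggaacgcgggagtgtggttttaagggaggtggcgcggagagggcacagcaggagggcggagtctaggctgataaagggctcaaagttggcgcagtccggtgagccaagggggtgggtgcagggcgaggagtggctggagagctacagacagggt

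The ISRE core was found in 14 of the 33 genes with a window (42.4%), against 1079 of 27025 genes in the whole table (3.99%). By group it was in 8 of 21 type I targets, 5 of 5 GTPase genes and 1 of 7 MHC class I pathway genes. Isg15 held 3 overlapping copies, the first beginning at −78 from the start of the gene, and Irgm1 held 2 overlapping copies beginning at −30 and −24. Ifit3 held separate copies at −156 and −122, in the reverse orientation. In B2m the single match began at −139. Samhd1 had no ISRE core but 1 GAS motif at −235, and Tapbp had neither. The GAS motif was in 9 of 33 genes (27.3%), against 2582 of 27025 in the table (9.55%). CKO library 3, described below, was the highest of the 6 libraries for 11 of the 14 genes with an ISRE core and 13 of the 19 without one. The windows of Tap1 and Psmb9, which lie head to head, shared 275 bases and held neither motif. These matches describe letters in the windows and not sites of binding.

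Each library held 17351907 to 20689481 counted reads, recovered as whole numbers from the deposited values. Values are given in RPKM, reads per kilobase of gene scaled to the depth of the library, and a gene of 1 kb with 3 reads has 0.145 to 0.173 RPKM. Mapk7 was at 5.59, 3.84 and 5.45 RPKM in CKO, against 7.12, 6.76 and 9.07 RPKM in WT, so it was lower in each CKO library but present (limma adjusted p = 0.505), and the deleted stretch of the gene is not named in the sources used here. Transcripts of stromal cells and macrophages were both abundant: Col1a1, a fibroblast and bone collagen gene, was at 1126 to 2959 RPKM in CKO and 2043 to 2635 RPKM in WT, and Lyz2, the macrophage lysozyme gene, at 321 to 2948 RPKM in CKO and 686 to 1590 RPKM in WT. Markers of endothelial cells (7 listed), lymphocytes (1 of 10 listed) and plasmacytoid dendritic cells (1 of 4 listed) did not exceed 0.823, 0.281 and 0.834 RPKM in any library. WT library 2 stood apart in proliferation: its 24 cell cycle genes averaged 1.37 on the log2(RPKM + 1) scale, against 3.62 to 4.78 in the CKO libraries and 3.98 and 4.73 in the other WT libraries.

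No interferon response or antigen presentation gene passed the test between genotypes. Of the 42 genes, 37 reached an RPKM of 1 in 3 or more libraries and were tested, and 0 of these 37 had a limma adjusted p under 0.05, where 1 of all 11085 genes tested did (0.00902%). At an unadjusted p under 0.05 there were 2 of 37, Samhd1 and Tapbp, against 9.74% of all genes tested. Fits of limma-voom on recovered reads also called 0, with 2 at an unadjusted p under 0.05. The fitted log2 difference, CKO minus WT, was above 0 for 16 and below 0 for 21 genes. Its median was −0.03, beside 0.03 over all genes tested, and it ran from −1.30 for Samhd1 to 1.13 for Irgm1. Samhd1 and Tapbp were also the only tested members whose groups did not overlap. Both were lower in CKO, as 2 of 37 against 9.18% of all genes, and 0 of 37 were higher in all CKO libraries, against 7.51% of all genes.

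**Figure D1:**
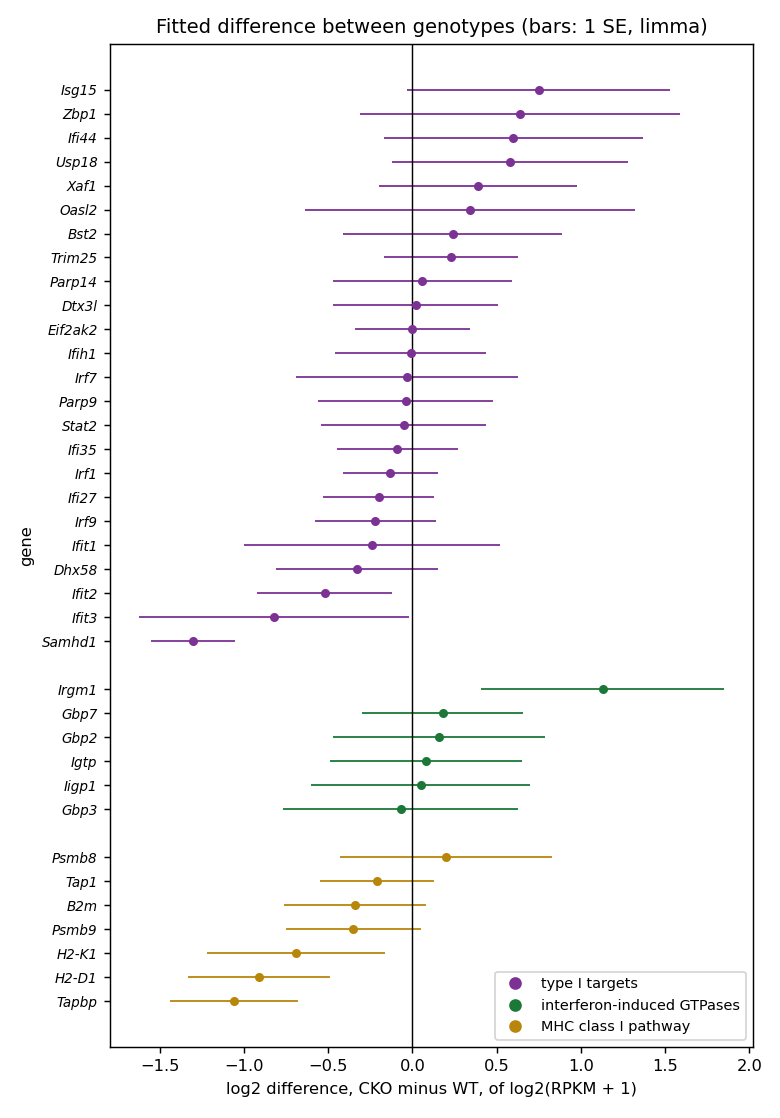
Fitted log2 difference of log2(RPKM + 1), CKO minus WT, for the 37 tested genes, with bars of 1 SE, in the order type I targets, GTPases and MHC class I pathway from top to bottom. Of the 37 differences, 30 lie within 1 SE of 0, and Samhd1 (−1.30), Tapbp (−1.06) and Irgm1 (1.13) lie farthest out.

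CKO library 3 stood apart from the other libraries for most of these genes. It held the highest value of the 6 libraries for 27 of the 37 tested genes, against 21.1% of all genes tested, and for 30 of the 40 listed. Among the CKO libraries alone it was highest for 34 of 37, against 34.0% of all genes. The same held for 19 of 20 tested macrophage markers, 32 of 36 other interferon targets and 14 of 14 other MHC class I pathway genes. The range over the CKO libraries on the log2(RPKM + 1) scale was wider than that over the WT libraries for 33 of 37 genes, against 54.0% of all genes. Its median was 1.81 over the CKO libraries and 1.00 over the WT libraries, beside 0.62 and 0.56 over all genes tested and 2.19 and 1.93 over the macrophage markers. In WT the lowest library was WT library 2, the one at passage 7, for 28 of 37 genes, against 52.6% of all genes. CKO library 1 and WT library 1 were the highest library for none of the 37.

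**Figure D2:**
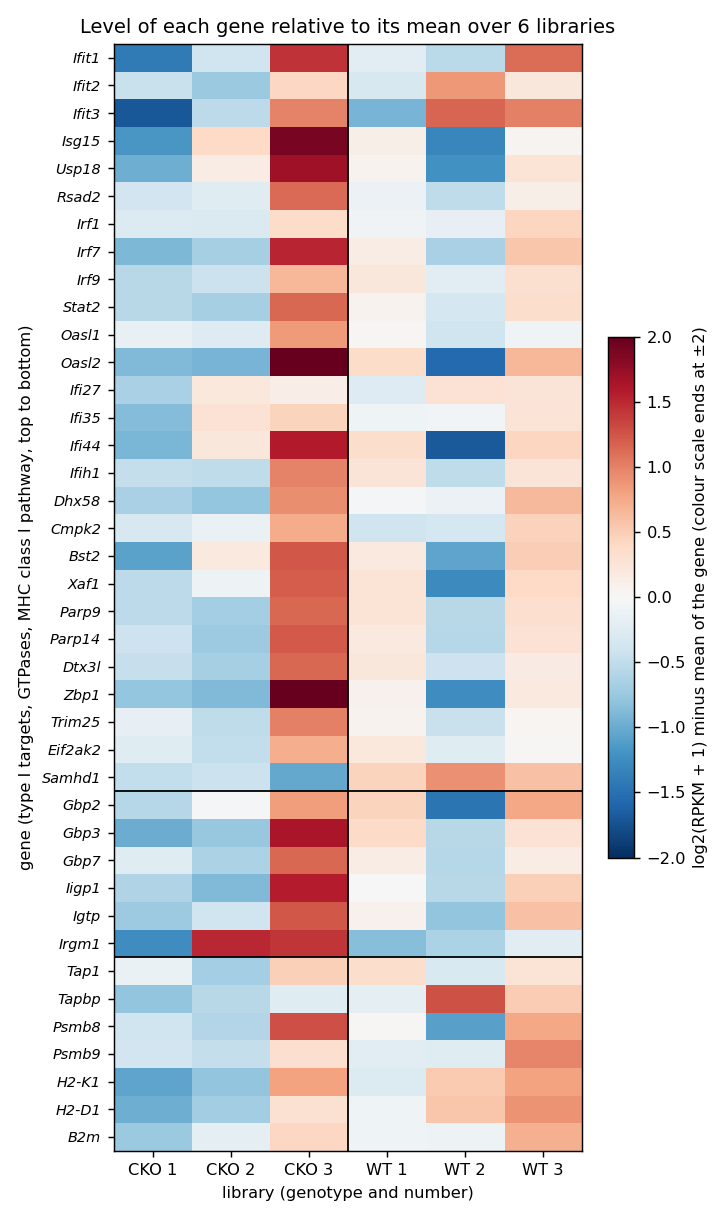
Colour shows log2(RPKM + 1) of each listed gene minus its mean over the 6 libraries, with CKO libraries left and WT libraries right of the vertical line and the 3 gene groups divided by horizontal lines. The column of CKO library 3 is red for every listed gene except Samhd1 and Tapbp, and the column of CKO library 1 is blue for all 40.

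**Figure D3:**
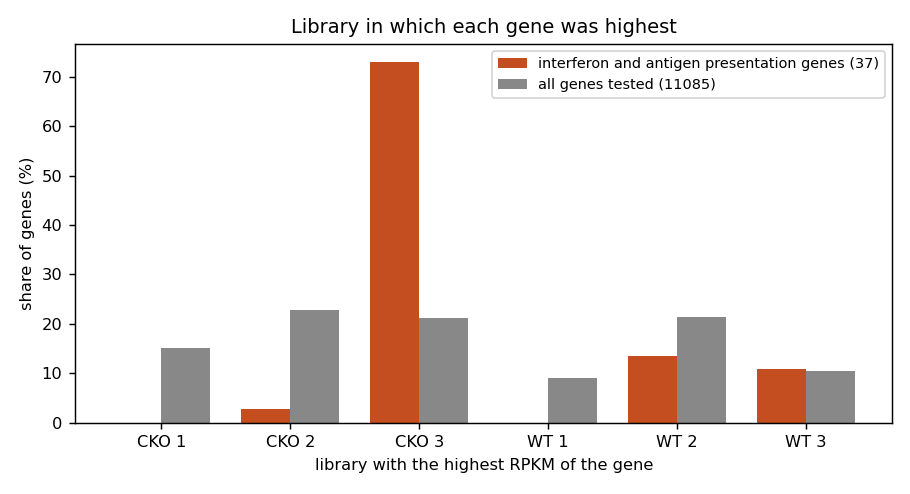
Share of the 37 tested members and of all 11085 tested genes whose highest RPKM fell in each library. CKO library 3 took 73.0% of the members and 21.1% of all genes.

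By library, the 24 tested type I targets averaged 2.64, 2.97 and 4.42 in CKO libraries 1 to 3 and 3.42, 2.89 and 3.74 in WT libraries 1 to 3 on the log2(RPKM + 1) scale. The 6 GTPase genes averaged 1.77, 2.30 and 3.81 in CKO, against 2.53, 1.74 and 2.85 in WT, and the 7 MHC class I genes 4.43, 4.50 and 5.55 in CKO, against 5.00, 5.16 and 5.78 in WT. The ranges of the genotypes overlapped for each group. The 22 listed macrophage markers moved in part with these levels: they averaged 3.64, 2.68 and 4.85 in CKO libraries 1 to 3 and 3.81, 2.91 and 5.03 in WT libraries 1 to 3, and their summed level was 467 to 3824 RPKM in CKO and 885 to 2516 RPKM in WT, with no marker at 0 in any library. Of these markers 20 were tested and 0 passed, with a median log2 difference of −0.23. CKO library 3 was a little below WT library 3 in mean macrophage level and above it in summed level, while the type I targets were at 4.42 and 3.74. Lyz2 alone gave 2948 of the 3824 RPKM summed in CKO library 3 and 1590 of the 2516 RPKM in WT library 3. With the macrophage level as a covariate, 0 of 37 members passed, and the median difference was 0.09 for type I targets, 0.26 for GTPases and −0.28 for MHC class I genes. In bulk libraries, fewer cells of a type and less RNA per cell cannot be told apart.

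**Figure D4:**
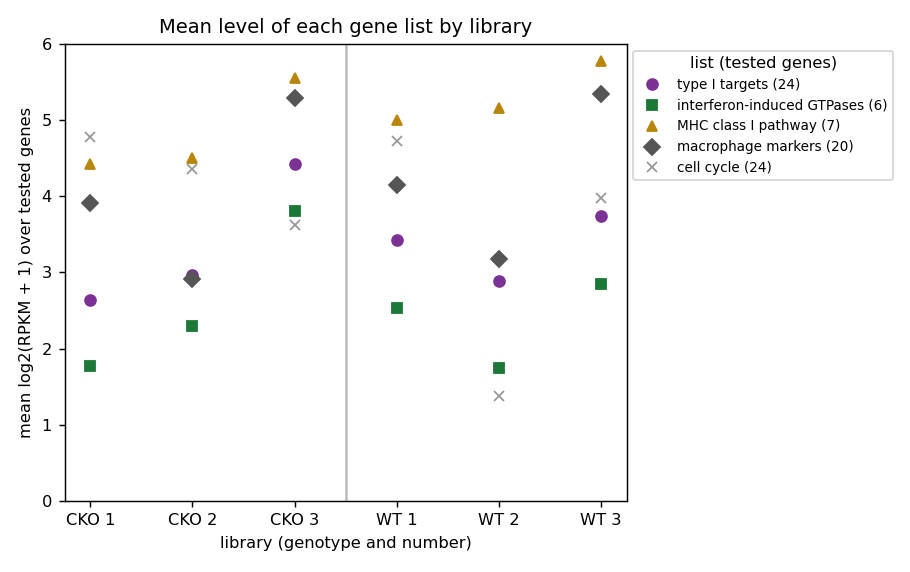
Mean log2(RPKM + 1) over the tested genes of each list in each library, CKO libraries left and WT libraries right. Type I targets and GTPases were highest in CKO library 3 (4.42 and 3.81), and macrophage markers were about as high in WT library 3 as in CKO library 3.

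Among the effectors and modifiers of the type I response, Isg15, which encodes a ubiquitin-like protein that is attached to other proteins, was at 15.1, 46.4 and 134 RPKM in CKO libraries 1 to 3, against 38.1, 13.7 and 36.6 RPKM in WT libraries 1 to 3. Usp18, the protease that removes ISG15 and blocks signalling at IFNAR, was at 4.35, 10.7 and 33.2 RPKM in CKO libraries 1 to 3, against 10.02, 3.58 and 11.8 RPKM in WT libraries 1 to 3. Both genes were highest in CKO library 3 and lowest in WT library 2, and the other libraries of each genotype overlapped. Isg15 averaged 65.2 ± 61.7 RPKM in CKO and 29.5 ± 13.7 RPKM in WT (SD, n = 3 each), with a log2 difference of 0.75, SE 0.78, limma adjusted p = 0.757. For Usp18 the test gave a log2 difference of 0.58, SE 0.70, limma adjusted p = 0.799. Leaving out CKO library 3 turned both differences, to −0.01 for Isg15 and −0.13 for Usp18, and leaving out CKO library 1 raised them to 1.52 and 1.21; without WT library 2 they were 0.29 and 0.12. Bst2, the gene of tetherin, which holds budding viruses at the cell surface, was next to Ifi27 in abundance among type I targets and was at 48.2, 118 and 243 RPKM in CKO, against 117, 48.9 and 144 RPKM in WT. CKO library 3 was again the highest, and CKO library 1 and WT library 2 lay close together at the low end. Trim25, a ubiquitin ligase gene that acts on the sensor RIG-I, was at 8.57, 6.60 and 20.8 RPKM in CKO, against 10.3, 6.88 and 10.1 RPKM in WT.

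The IFIT genes, whose proteins bind viral RNA, did not all share this order. Ifit1 was at 2.26, 5.56 and 22.7 RPKM in CKO libraries 1 to 3, against 6.44, 4.98 and 17.7 RPKM in WT libraries 1 to 3. Ifit3 was at 1.52, 4.69 and 15.2 RPKM in CKO libraries 1 to 3, against 3.29, 17.3 and 15.4 RPKM in WT libraries 1 to 3. Ifit2 was at 2.82, 2.13 and 5.94 RPKM in CKO libraries 1 to 3, against 3.18, 8.50 and 5.14 RPKM in WT libraries 1 to 3. Ifit1 was highest in CKO library 3, whereas Ifit2 and Ifit3 were highest in WT library 2, the library with the lowest Isg15. Behind Ifit3 were 77 to 961 recovered reads per library. Ifit2 and Ifit3 had log2 differences of −0.52 (SE 0.40) and −0.82 (SE 0.80), with limma adjusted p = 0.689 and 0.742. With 1 library left out they ran from −0.85 (without CKO library 3) to −0.22 (without WT library 2) for Ifit2, and from −1.52 (without CKO library 3) to −0.18 (without CKO library 1) for Ifit3. Because the counting method is not given and the IFIT genes are close relatives, their values may share reads.

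Of the transcription factor genes among the members, Irf7, Stat2 and Irf9 were also highest in CKO library 3, and Irf1 was highest in WT library 3. Irf7, which drives the amplifying phase of interferon production, was at 3.18, 3.89 and 21.3 RPKM in CKO libraries 1 to 3, against 7.60, 3.95 and 10.4 RPKM in WT libraries 1 to 3. Stat2 was at 5.85, 5.31 and 21.2 RPKM in CKO libraries 1 to 3, against 9.53, 6.91 and 11.9 RPKM in WT libraries 1 to 3. Irf9, its DNA-binding partner, was at 9.35, 10.3 and 23.1 RPKM in CKO libraries 1 to 3, against 16.8, 12.2 and 17.99 RPKM in WT libraries 1 to 3. All 3 were highest in CKO library 3 and lower in CKO libraries 1 and 2 than in any WT library, so the genotypes overlapped through CKO library 3. Irf1, a factor induced by interferon γ, spanned only 3.08 to 5.48 RPKM in CKO and 3.44 to 5.74 RPKM in WT. The log2 differences of Irf7, Stat2 and Irf9 were −0.03, −0.05 and −0.22, with SEs of 0.66, 0.49 and 0.36, and with 1 library left out they ran from −0.80 to 0.41, −0.64 to 0.27 and −0.61 to 0.00, lowest without CKO library 3.

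Among the sensors of nucleic acids, Zbp1 had the widest span within a genotype of any tested member. Zbp1, a sensor of Z-form nucleic acid that can start necroptosis, was at 0.562, 0.454 and 15.5 RPKM in CKO libraries 1 to 3, against 1.84, 0.134 and 2.05 RPKM in WT libraries 1 to 3. Its levels had a 34.0-fold span over the CKO libraries and a 15.3-fold span over the WT libraries, with 6 to 593 recovered reads. The value in CKO library 3 lay above every other library, and the test gave a log2 difference of 0.64, SE 0.95, limma adjusted p = 0.841. In the 3 leave-one-out fits in which Zbp1 passed the filter, the difference was 0.18 to 1.24. Ifih1, which encodes the RNA sensor MDA5, was at 1.61, 1.55 and 6.21 RPKM in CKO, against 3.34, 1.57 and 3.35 RPKM in WT, and Dhx58, which encodes LGP2, at 2.39, 2.12 and 9.09 RPKM in CKO, against 4.21, 3.91 and 7.31 RPKM in WT. Eif2ak2, the gene of the RNA-activated kinase PKR, spanned 7.99 to 19.95 RPKM in CKO and 9.75 to 13.7 RPKM in WT. The low-abundance gene Oasl1 and the antiviral enzymes Rsad2 and Cmpk2 stayed under the filter, at no more than 2.22 RPKM, and each was highest in CKO library 3. Oasl2, a related gene, was at 2.23, 2.14 and 28.7 RPKM in CKO, against 6.68, 1.02 and 8.46 RPKM in WT.

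Other type I targets were also highest in CKO library 3, with smaller spans than Zbp1. Ifi44 was at 4.01, 9.98 and 27.04 RPKM in CKO, against 10.98, 1.94 and 11.6 RPKM in WT. Xaf1, a pro-apoptotic gene, was at 3.92, 5.54 and 15.3 RPKM in CKO, against 7.54, 1.93 and 8.29 RPKM in WT. Parp9 and Dtx3l, whose products form an ADP-ribosylating ubiquitin ligase complex, were both lowest in CKO library 2: Parp9 was at 4.63, 4.003 and 16.8 RPKM in CKO, against 8.76, 4.47 and 9.19 RPKM in WT, and Dtx3l at 1.92, 1.52 and 7.89 RPKM in CKO, against 3.69, 1.996 and 3.47 RPKM in WT. Parp14 was at 0.716 to 5.69 RPKM in CKO and 0.926 to 2.48 RPKM in WT. Ifi35 was at 8.74, 20.8 and 23.2 RPKM in CKO, against 15.7, 16.2 and 20.6 RPKM in WT, so CKO libraries 2 and 3 lay just above all WT libraries and CKO library 1 below them. Ifi27, the most abundant type I target, was at 93.2, 170.1 and 159.8 RPKM in CKO libraries 1 to 3, against 123, 179.8 and 175 RPKM in WT libraries 1 to 3, so CKO library 3 was not its highest library and CKO library 1 was its lowest.

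Samhd1 differed from the other type I targets in its order of libraries. Its product is a dNTP hydrolase that limits retroviral replication and is also expressed without interferon. Samhd1 was at 17.5, 18.3 and 11.9 RPKM in CKO libraries 1 to 3, against 34.6, 48.1 and 38.3 RPKM in WT libraries 1 to 3, with 995 to 4686 recovered reads. Every CKO library lay below every WT library, and CKO library 3, the highest for 19 of the 24 type I targets, was the lowest for Samhd1. The mean was 15.9 ± 3.49 RPKM in CKO and 40.3 ± 6.98 RPKM in WT (SD, n = 3 each). It was not called (log2 difference of −1.30, SE 0.25, limma adjusted p = 0.253), although its unadjusted p was the lowest of the 37 genes. With 1 library left out, the log2 difference was −1.41 to −1.11. An exact permutation test of 1 gene in 3 against 3 libraries cannot go below p = 0.1.

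**Figure D5:**
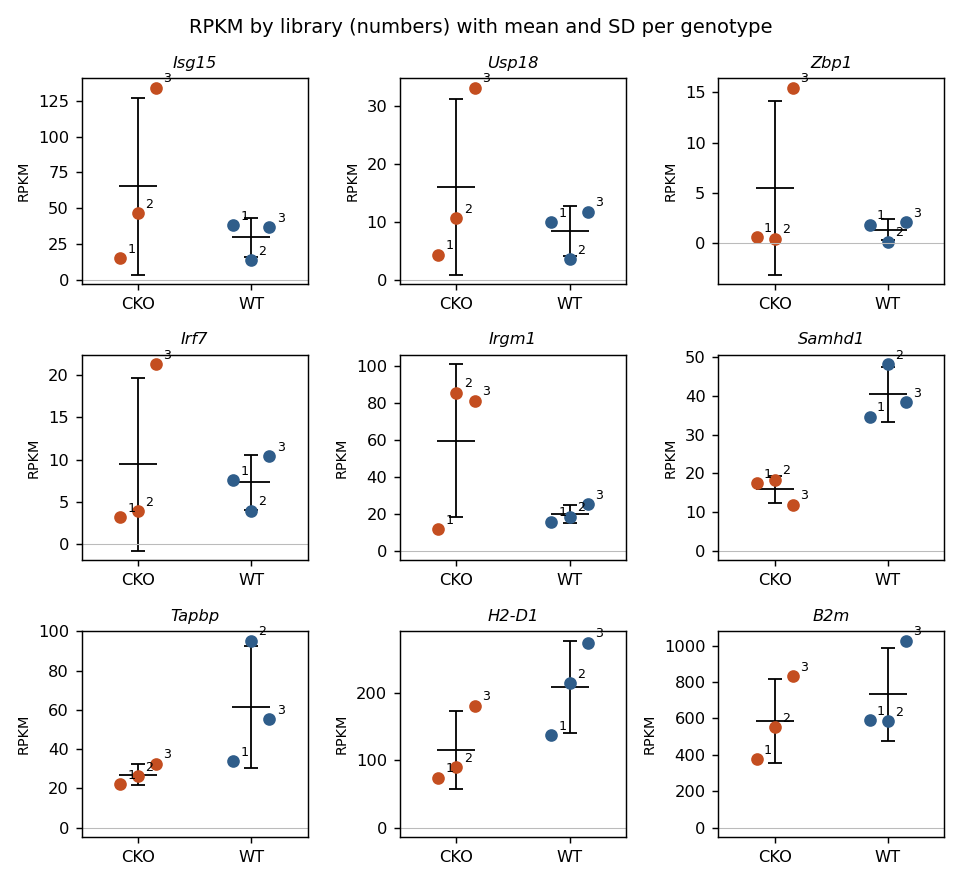
RPKM of 9 genes in each library, with CKO left of WT, the library number beside each point, and the mean and SD of each genotype as a black bar. Samhd1 and Tapbp show no overlap between genotypes, Irgm1 is high in CKO libraries 2 and 3, and the other genes overlap.

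The interferon-induced GTPase genes had a median log2 difference of 0.12, with 5 above and 1 below 0. Irgm1, an immunity-related GTPase that regulates autophagy and the other GTPases of its family, was at 11.8, 85.5 and 81.2 RPKM in CKO libraries 1 to 3, against 15.8, 18.6 and 25.3 RPKM in WT libraries 1 to 3. CKO libraries 2 and 3 lay far above the WT libraries, while CKO library 1 lay below them, a split that among the other members Ifi35 alone showed. Irgm1 averaged 59.5 ± 41.4 RPKM in CKO and 19.9 ± 4.88 RPKM in WT (SD, n = 3 each), with a log2 difference of 1.13, SE 0.72, limma adjusted p = 0.633. With 1 library left out the log2 difference of Irgm1 was 0.66 without CKO library 2, 0.70 without CKO library 3 and 2.04 without CKO library 1, with limma adjusted p = 0.727, 0.831 and 0.0943. Igtp, of the same family, was at 2.77, 3.70 and 13.7 RPKM in CKO libraries 1 to 3, against 5.56, 2.60 and 8.26 RPKM in WT libraries 1 to 3. Gbp2, the most abundant guanylate-binding protein gene listed, was at 5.44, 8.42 and 16.2 RPKM in CKO libraries 1 to 3, against 12.1, 2.50 and 15.4 RPKM in WT libraries 1 to 3. Igtp and Gbp2 were highest in CKO library 3 and lowest in WT library 2. Gbp3 and Gbp7 reached 10.3 and 3.50 RPKM in CKO library 3, against no more than 1.17 and 0.723 RPKM in the other CKO libraries and 3.76 and 1.25 RPKM in WT. Iigp1 was at 0.328 to 6.27 RPKM in CKO and 0.683 to 2.44 RPKM in WT. Guanylate-binding protein genes lie in a cluster of similar copies, so their values may share reads.

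Genes of the MHC class I pathway had a median log2 difference of −0.35, with 1 above and 6 below 0. Of the MHC molecules themselves, B2m, the light chain gene, was at 375, 551 and 833 RPKM in CKO libraries 1 to 3, against 589, 583 and 1027 RPKM in WT libraries 1 to 3, the highest level of any member. H2-D1, a classical heavy chain gene, was at 73.6, 89.5 and 180.4 RPKM in CKO libraries 1 to 3, against 137, 214 and 274 RPKM in WT libraries 1 to 3. H2-K1, the other heavy chain gene, was at 35.9, 43.3 and 133 RPKM in CKO libraries 1 to 3, against 62.1, 109 and 132 RPKM in WT libraries 1 to 3. CKO libraries 1 and 2 lay below all WT libraries for these 3 genes, and CKO library 3 lay among the WT values or, for H2-K1, level with WT library 3. The log2 differences were −0.34 (SE 0.42), −0.91 (SE 0.42) and −0.69 (SE 0.53), with limma adjusted p = 0.799, 0.552 and 0.686. With 1 library left out they ran from −0.64 to −0.06 for B2m, −1.29 to −0.65 for H2-D1 and −1.27 to −0.34 for H2-K1, in each case lowest without CKO library 3 and closest to 0 without CKO library 1, and quantile normalization gave −0.71 for B2m. Class I heavy chain genes are similar in sequence and vary between strains, so reads may be split between them.

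In the peptide-loading complex, Tapbp, the gene of tapasin, which holds empty MHC class I molecules at the peptide transporter, was at 22.005, 26.1 and 32.5 RPKM in CKO libraries 1 to 3, against 33.8, 95.2 and 55.3 RPKM in WT libraries 1 to 3. Its groups did not overlap, but CKO library 3 and WT library 1 were close, and WT library 2 was the highest. The mean was 26.9 ± 5.28 RPKM in CKO and 61.4 ± 31.2 RPKM in WT (SD, n = 3 each), with a log2 difference of −1.06, SE 0.38, limma adjusted p = 0.425. The difference was −0.68 without WT library 2. Tap1, a subunit of the transporter, was at 7.52, 4.82 and 11.97 RPKM in CKO libraries 1 to 3, against 10.9, 6.49 and 10.2 RPKM in WT libraries 1 to 3, with overlap between genotypes. Of the immunoproteasome genes, Psmb8 was at 4.71, 3.97 and 17.3 RPKM in CKO, against 6.60, 2.53 and 11.8 RPKM in WT, and Psmb9 at 0.904, 0.792 and 2.13 RPKM in CKO, against 1.14, 1.09 and 3.89 RPKM in WT. As a share of the RPKM of Psmb5, the constitutive subunit it replaces, Psmb8 was 4.60%, 2.16% and 16.3% in CKO libraries 1 to 3 and 6.29%, 2.48% and 11.2% in WT libraries 1 to 3. Psmb9 was 0.487% to 2.30% of its counterpart Psmb6 in CKO and 1.21% to 4.11% in WT. Both genes were far below their constitutive counterparts in every library, and the shares overlapped between genotypes. In CKO library 2, Psmb5 and Psmb6 were at 184 and 163 RPKM, against 102 to 106 and 89.7 to 94.8 RPKM in the other libraries. The low shares in CKO library 2 thus reflect in part these higher counterparts.

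Of the 6 libraries, CKO library 3 changed the number of members without overlap most when left out. With it left out, 15 of 34 tested members lay lower in the remaining CKO libraries than in all WT libraries, against 14.2% of all genes tested in that way, and 0 lay higher. The median log2 differences were then −0.54 for type I targets, −0.37 for GTPases and −0.64 for MHC class I genes, beside 0.01 over all genes. At an unadjusted p under 0.05 there were 6 of 34 members, against 7.34% of all genes, and 0 passed the adjusted threshold (lowest limma adjusted p = 0.491, for Samhd1). CKO library 3 was the highest CKO library for 34 of 37 members, so leaving it out lowers their CKO values by design. The same held for only 34.0% of all genes, so the shares over all genes are no like comparison. These counts are therefore not a test of genotype. Without CKO library 1, 2 of 37 members were lower in the remaining CKO libraries than in all WT libraries, against 13.9% of all genes, and 3 of 37 (Isg15, Ifi35 and Irgm1) were higher, against 13.3% of all genes. Without WT library 1, 5 of 34 were lower, against 16.1% of all genes. With passage 5 alone, that is without WT library 2, 2 of 37 were lower, against 11.8% of all genes. The medians were then −0.22 for type I targets, −0.25 for GTPases and −0.56 for MHC class I genes. WT library 2 was the lowest WT library for 28 of 37 members, against 52.6% of all genes, so leaving it out raises most members' WT values by design. CKO library 1 was likewise the lowest CKO library for 19 of 37, against 3019 of 11085 genes. The counts and medians without either library are therefore no test of genotype. No member passed in any of these fits.

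Other genes of the pathway were read from lists of ligands, receptors, sensors and targets. Among 12 interferon ligand names, 1 was listed: Ifnz, at 0 to 0.106 RPKM in CKO and 0.0788 to 0.132 RPKM in WT. The other ligands were not analysed here. Of 19 listed receptor and signalling genes, 18 were tested and 0 passed, with 3 above and 15 below 0 and a median log2 difference of −0.16. Jak1, the kinase shared by both interferon types, was at 53.2, 25.8 and 64.7 RPKM in CKO, against 65.7, 36.1 and 49.9 RPKM in WT. Socs1, an inhibitor of JAK kinases, was at 2.31 to 2.88 RPKM in CKO and 3.27 to 5.12 RPKM in WT, without overlap (log2 difference of −0.51, SE 0.23, limma adjusted p = 0.533). Of 13 listed genes of nucleic acid sensing, 11 were tested and 0 passed (median −0.04). Tlr3, the receptor for double-stranded RNA, was at 0.899, 0.563 and 2.74 RPKM in CKO, against 3.02, 2.98 and 2.54 RPKM in WT, and Ddx58, the gene of RIG-I, at 11.2, 9.73 and 26.4 RPKM in CKO, against 18.7, 10.9 and 16.3 RPKM in WT.

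Another 48 interferon targets were listed, of which 36 were tested and 0 passed, with 22 above and 14 below 0 and a median log2 difference of 0.17. CKO library 3 was the highest library for 27 of these 36, against 21.1% of all genes tested. Ifitm3, which encodes a membrane protein that blocks viral entry, had the highest mean over the 6 libraries and was at 381, 439.7 and 646 RPKM in CKO, against 497, 477 and 549.8 RPKM in WT. Its relative Ifitm2 was at 194, 256 and 239 RPKM in CKO, against 281, 951 and 412 RPKM in WT, without overlap. Cxcl10, a chemokine gene, was at 1.25, 2.63 and 3.48 RPKM in CKO, against 0.523, 0 and 1.62 RPKM in WT. The lowest limma adjusted p in this list was 0.468, for Cxcl10, which had only 0 to 68 recovered reads per library.

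A further 15 genes of the MHC class I pathway were listed, of which 14 were tested and 0 passed (median log2 difference −0.08). Tapbpl, which encodes a relative of tapasin that edits the peptides bound to MHC class I, was at 1.89, 2.28 and 2.78 RPKM in CKO libraries 1 to 3, against 5.18, 5.08 and 4.14 RPKM in WT libraries 1 to 3. Its groups did not overlap, in the same direction as Tapbp, but no call was made (log2 difference of −0.81, SE 0.22, limma adjusted p = 0.312). Tap2, the other transporter subunit, was at 6.74, 6.81 and 11.5 RPKM in CKO, against 10.6, 16.1 and 14.95 RPKM in WT, with CKO library 3 above WT library 1. The chaperone gene Calr, which encodes calreticulin, was at 903, 1074 and 2173 RPKM in CKO, against 1068, 929.9 and 769 RPKM in WT, and Pdia3 at 481, 629 and 1293 RPKM in CKO, against 539.6, 337 and 474 RPKM in WT. The third immunoproteasome gene, Psmb10, was 6.20% to 13.5% of Psmb7 in CKO and 6.32% to 13.2% in WT. Psmb7 was at 173 RPKM in CKO library 2, where this share was lowest, and at 88.0 to 102 RPKM in the other libraries.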

How the data were processed

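Per the labels' protocols, TRIzol was used for RNA and a TruSeq stranded mRNA kit for the libraries. The deposited values are RPKM, as the values themselves show: given a whole-number read total for each library and a whole-number length for each gene, reads came out whole for 14964 of 15063 genes (99.34%), within 0.01 read or a relative error of 1e-07, but for 0 of 500 genes with shuffled values. Per the submitters' processing notes, mm9 was the genome build. The sources used here do not give the aligner, counting method, use of strand or filters, so overlapping and similar genes may share reads.

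Values were tested as log2(RPKM + 1) with limma 3.58.1 in R 4.3.3 (trend and robust moderation, genotype as the only term), in genes reaching an RPKM of 1 in 3 or more libraries, with two-sided p-values adjusted by the Benjamini-Hochberg method over 11085 genes and a threshold of 0.05. Differences on this scale understate changes of low genes. The members, lists and tests were chosen with earlier results of these data known. Alternatives were a pseudocount of 0.1, no filter, a filter at RPKM 5, median centring, quantile normalization, plain moderation, leaving out each library, merging WT libraries 1 and 2, the replicate number as a block, a macrophage covariate and limma-voom on recovered reads. Values by library are given for the members with the lowest p and highest level in each group and for Stat2, Irf7 and Irf9. Other members are given by range or chosen after their values were seen, and from other lists the genes named are those with the lowest p or highest level, or chosen after their values were seen. Depth covers counting error only. The tests were tried on simulated data with larger changes, which does not give their power for differences of the size fitted here. Promoters and motifs were read with Python 3.11.15. The values of 1 signalling gene are not reported here.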

Additional observations from a re-analysis of the deposited data

How the results depend on the processing

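None of the members passed the adjusted threshold under any of the 16 alternatives. The number of genes past it among all genes was 0 to 24 with 1 library left out, 50 with WT libraries 1 and 2 merged, 4 with the filter at RPKM 5, 2 with median centring or quantile normalization, and 0 with a pseudocount of 0.1, no filter, the macrophage covariate, voom on recovered reads or the replicate block. The cause was not tested. Over all tested genes, same-numbered libraries deviated together at r = 0.20, 0.01 and −0.02, and the replicate block called 0 genes. These values cannot show whether the numbers pair the libraries. Library 3 was the highest within CKO for 34 of 37 members, against 34.0% of all genes. Within WT it was the highest for 25 of 37, against 27.8% of all genes. The members whose groups did not overlap numbered 2 to 15 with 1 library left out, the highest without CKO library 3. They were 5 without CKO library 1 or WT library 1. In these fits 20.3% to 33.8% of all genes did not overlap. The members' share was above that of all genes only without CKO library 3 (44.1% against 25.9%), the CKO library highest for most members. Group medians stayed within the spread between libraries: with 1 library left out they ran from −0.54 to 0.26 for type I targets, −0.37 to 0.49 for GTPases and −0.64 to −0.13 for MHC class I genes, where quantile normalization gave −0.71. The direction of 12 named members turned when a library was left out, also where the difference was among the largest above 0, as for Isg15, Ifi44 and Usp18. It ran from −0.01 to 1.52 for Isg15, −0.13 to 1.21 for Usp18, −0.80 to 0.41 for Irf7, −0.61 to 0.00 for Irf9, −0.64 to 0.27 for Stat2, −0.38 to 0.07 for Ifi27, −0.09 to 1.20 for Ifi44, −0.32 to 0.84 for Bst2, −0.53 to 0.58 for Gbp2, −0.05 to 0.55 for Gbp7, −0.52 to 0.46 for Igtp and −0.60 to 0.06 for Psmb9. Irf7 was at 0.03 after quantile normalization and 0.13 with the macrophage covariate, where Stat2 was at 0.06, and with WT libraries 1 and 2 merged Gbp2 was at −0.06 and Igtp at −0.07. Samhd1 ran from −1.41 to −1.11 and Tapbp from −1.42 to −0.68 with 1 library left out. Their groups did not overlap, so leaving out 1 library could not turn their direction. Ifit2, Ifit3, Dhx58, Irgm1, H2-K1, H2-D1 and B2m also kept their direction in these fits, as did Zbp1 where it was tested. Zbp1 and Gbp7 were under the filter, and so not tested, in some of these fits. Depth limits Rsad2, Cmpk2, Oasl1 and Psmb9, which had 2 to 149 reads per library. It also limits single libraries of other members, as for Zbp1 with 6 reads in WT library 2 and Iigp1 with 22 in CKO library 2.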

Other observations

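MHC class II genes, which are induced by interferon γ and mark antigen-presenting cells, were low beside class I. Of 6 listed, 3 were tested and 0 passed (limma). H2-DMb1, a peptide-editing gene of this pathway, was at 3.29, 3.58 and 5.48 RPKM in CKO libraries 1 to 3, against 8.12, 23.3 and 12.7 RPKM in WT libraries 1 to 3, without overlap (log2 difference of −1.53, SE 0.38, limma adjusted p = 0.284). H2-Ab1 was at 3.14, 1.04 and 8.74 RPKM in CKO, against 2.32, 15.2 and 10.1 RPKM in WT, and Cd74, the invariant chain gene, at 1.08, 0.877 and 1.83 RPKM in CKO, against 0.896, 2.90 and 2.28 RPKM in WT. All 3 were highest in WT library 2, where Isg15 and Usp18 were lowest.

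Some interferon targets outside the members stood out in CKO library 3, and these genes were chosen after their values were seen. Tgtp1, an immunity-related GTPase gene, was at 0.0564, 0.534 and 9.16 RPKM in CKO libraries 1 to 3, against 0.185, 0.189 and 0.246 RPKM in WT libraries 1 to 3. Its near-identical copy Tgtp2 was at 0.244, 0.587 and 4.92 RPKM in CKO, against 0.348, 0.0172 and 0.368 RPKM in WT. Cd274, which encodes the checkpoint ligand PD-L1, was at 0.116, 0.366 and 6.86 RPKM in CKO libraries 1 to 3, against 0.634, 0.520 and 0.577 RPKM in WT libraries 1 to 3. Each was under the filter and so not tested. Ifi47, a further GTPase gene, was at 0.971, 5.91 and 11.4 RPKM in CKO, against 0.630, 2.35 and 3.58 RPKM in WT, high in CKO libraries 2 and 3 like Irgm1. No explanation was tested for these values.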
